A study of Mus musculus with 6 samples.

Results

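The 34 genes described here are Trp53, which encodes the transcription factor p53, together with its main regulators and a set of its known target genes. They were picked by symbol from a list of p53 pathway genes, chosen with earlier results of these data known. All 34 were found among the 22740 genes of the count table. By function, 6 act on p53 itself (feedback), 10 on cell cycle arrest and growth control, 13 on cell death and 5 on DNA repair. The study sorted B16-F3, a mouse melanoma line grown in serum-containing medium, by the way melanin scatters light in a flow cytometer. High-pigmented cells are called HPC here, and low-pigmented cells LPC. Both populations come from this 1 line, and the labels name no added allele or agent, so pigment content is the one difference they give. RNA at transcript 3′ ends was sequenced in 3 HPC and 3 LPC libraries. Whether replicates are separate cultures or sorts is not stated, and p-values therefore measure only how far these libraries vary, which may be technical. In RNA pooled from sorted cells, more cells with a transcript and more of it per cell cannot be told apart.

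p53 is held at a low level by Mdm2, an E3 ubiquitin ligase, and by its partner Mdm4, and it accumulates when DNA damage or other stress disrupts this hold. It then binds a sequence element, a short motif repeated once, near its target genes and raises their transcription, Mdm2 included, which closes a negative feedback loop. Because p53 is controlled largely as a protein, the level of its mRNA is a poor guide to its activity. In skin, p53 is known for its part in the tanning response to ultraviolet light.

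The promoters of Ccng1 and Cdkn1a are shown because they held the closest matches to the p53 element among the members. Their RefSeq promoter windows (build GRCm38.p6, 250 bases before to 50 bases after a transcript start) are shown 5′ to 3′ on the gene's strand, with the matching 20 bases in capitals. The Ccng1 window is chr11:40755237-40755536 on the minus strand and the Cdkn1a window is chr17:29090729-29091028 on the plus strand.
Ccng1: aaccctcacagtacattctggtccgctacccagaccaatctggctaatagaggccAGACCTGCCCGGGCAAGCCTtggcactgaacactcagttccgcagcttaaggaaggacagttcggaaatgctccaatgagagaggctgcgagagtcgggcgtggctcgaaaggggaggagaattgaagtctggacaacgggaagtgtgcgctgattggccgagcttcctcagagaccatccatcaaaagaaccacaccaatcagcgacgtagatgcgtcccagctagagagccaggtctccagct
Cdkn1a: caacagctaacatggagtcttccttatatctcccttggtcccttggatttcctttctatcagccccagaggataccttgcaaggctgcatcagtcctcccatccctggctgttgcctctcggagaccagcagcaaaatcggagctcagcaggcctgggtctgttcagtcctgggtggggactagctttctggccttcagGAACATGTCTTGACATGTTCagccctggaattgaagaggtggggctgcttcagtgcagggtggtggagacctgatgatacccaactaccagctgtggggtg
In Ccng1 the match lay at chr11:40755462-40755481 and ended 175 bases before the start, and in Cdkn1a it lay at chr17:29090928-29090947 and ended 31 bases before the start. Each differed from the p53 consensus element (a short motif and its repeat with no spacer, both strands searched) at 1 base, position 5 of the match in Ccng1 and position 11 in Cdkn1a. Of all 32851 promoter windows of the same length, 29 (0.0883%) held a match with at most 1 mismatch. A motif of 2 CATG copies with any 6 bases between them, which overlaps the consensus element and reads the same on both strands, was in 234 windows (0.712%), and among the members it was found in the same Cdkn1a window. A window was given for 26 of the 34 members. Their 34 windows included a second one for Cdkn1a, at a start 2790 bases downstream, whose best match had 5 mismatches. With up to 3 mismatches 11 of the 34 windows (32.4%) held a match, compared with 6.29% of all windows. These windows belonged to 10 members, since overlapping windows of Aen held the same match. No more can be read from letters in a window than that they are there.

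Library totals were 18131623 to 22186743 counts in HPC and 14695822 to 18810435 counts in LPC, with 13715 to 14141 genes detected per library. Tyr, the enzyme that starts melanin synthesis, was at 908, 855 and 994 CPM (read counts scaled to equal library size) in HPC replicates 1, 2 and 3 against 261, 62.2 and 238 CPM in LPC. Of the 8 pigment cell markers, 5 had a positive log2 fold change and 3 a negative one (Dct, Mlana and Sox10), with a median of 0.07. None was called in edgeR without the block, with 2 higher at an unadjusted p under 0.05, compared with 5.06% of all genes. None was called in limma-voom and 2 were called higher in DESeq2, where 1.02% of all genes were. With the replicate block described below, edgeR called 2 higher in HPC, where 1.43% of all genes were. These were Tyr (log2 2.52, edgeR adjusted p = 0.021) and the channel gene Trpm1 (log2 2.28, edgeR adjusted p = 0.0077). All 8 together made up 33800 to 37070 CPM in HPC and 32220 to 34780 CPM in LPC. Of 8 immune markers 3 were at 0 in every library (Ptprc, Cd3e and Itgam) and all 8 summed to 8.61 to 15.9 CPM in HPC and 4.05 to 9.44 CPM in LPC. Of 9 markers of fibroblasts, endothelium and keratinocytes 3 were at 0 (Cdh5, Krt5 and Krt14), and all 9 summed to 19.4 to 28.4 CPM in HPC and 17.7 to 34.3 CPM in LPC. Among them Pdgfra, a growth factor receptor of mesenchymal cells, was called lower in HPC with that block (log2 -1.11, edgeR adjusted p = 0.045, and 0.34 without the block).

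Most of the p53 genes had higher mean levels in HPC than in LPC, with the highest class median among the arrest genes. A low-count filter kept 30 of the 34 genes for testing, and the numbers below are over those 30. Of them, 25 had a positive log2 fold change (HPC over LPC), compared with 48.2% of all 11921 genes tested, and their median was 0.40, compared with -0.01 over all genes tested. With the 3 libraries of each group compared without pairing, none of the 30 passed an adjusted p of 0.05 in edgeR's quasi-likelihood test or in limma-voom; the background was 0% of genes higher and 0.0419% lower in each. At an unadjusted p of 0.05 edgeR gave 14 members higher in HPC, compared with 5.06% of all genes, and 1 lower, compared with 4.31%, and limma-voom gave 13 higher, compared with 5.44%, and 1 lower, compared with 4.24%. In 14 members every HPC library lay above every LPC library, compared with 7.16% of all genes, and no member had the opposite order, compared with 7.18%.

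Equally numbered HPC and LPC libraries deviated together from their group means, so the replicate number was also used as a block. With that block, edgeR called 6 members higher in HPC and none lower, where 1.43% of all genes were called higher and 1.1% lower. At an unadjusted p of 0.05 it gave 18 members higher, compared with 10.1% of all genes, and 1 lower, compared with 8.66%. The 6 were Ccng1, Cdkn1a, Zmat3, Phlda3, Tnfrsf10b and Aen, and words such as "rose" below refer to this test. DESeq2 without the block also called 6 members higher, where 1.02% of all genes were called higher: Ccng1, Cdkn1a, Phlda3 and Tnfrsf10b again, with Btg2 and Plk2 in place of Zmat3 and Aen. On simulated counts, drawn without a replicate effect, the share of false calls was above the threshold in edgeR and limma-voom too, and highest in DESeq2. How the blocked fits do where replicate numbers share an effect was not tested. DESeq2 with the block called 10 higher, where 2.58% of all genes were, namely these 8 with Mdm2 and Mdm4. Neither DESeq2 fit called a member lower, where 0.872% of all genes were called lower without the block and 1.5% with it. Without the libraries numbered 2 the blocked edgeR fit called no member, where 0% of all genes were called in either direction. Without those numbered 1 it called 16 members higher and 2 lower, Trp53 and Bbc3, where 13.8% of all genes were called higher and 10.8% lower. Without those numbered 3 it called 7 higher and none lower, where 1.09% of all genes were called higher and 0.553% lower.

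**Figure D1:**
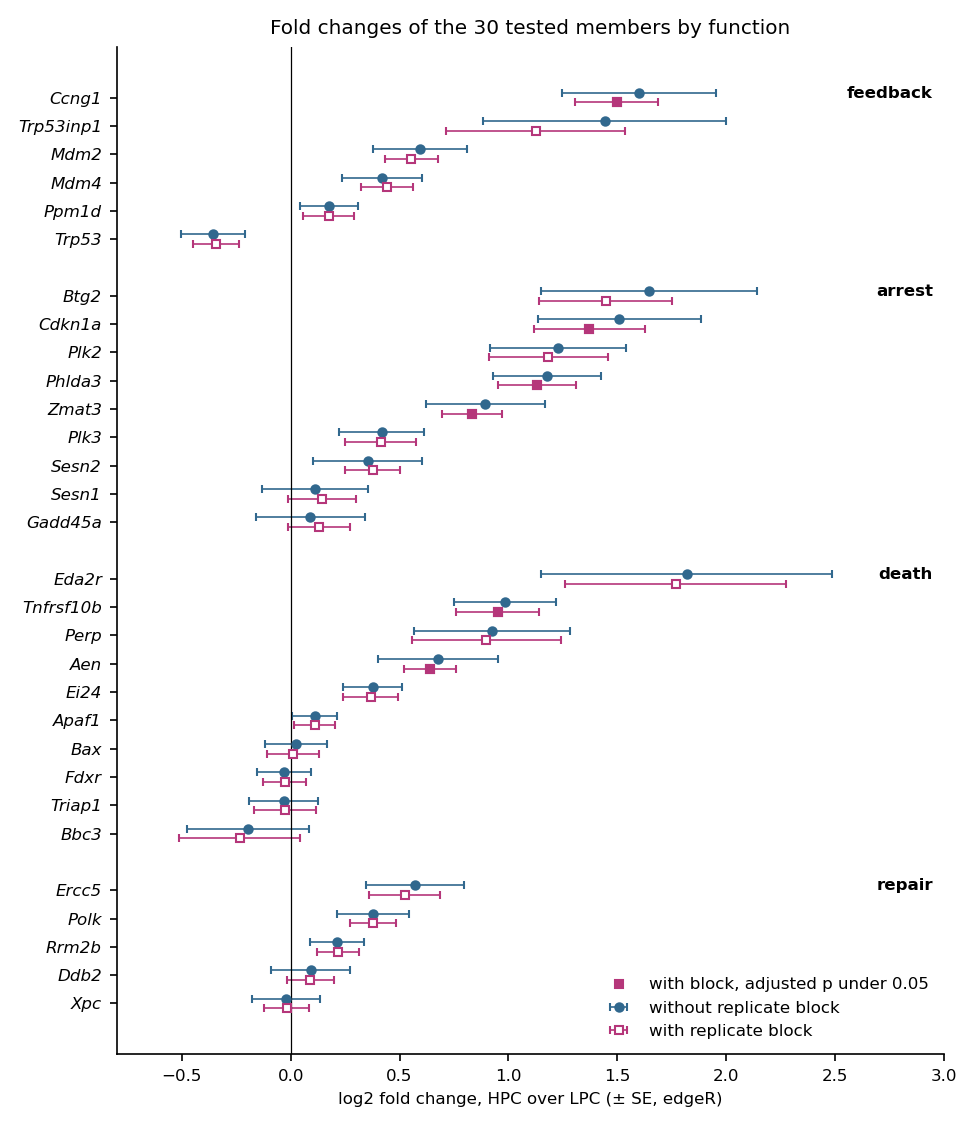
Log2 fold changes of HPC over LPC with standard errors from edgeR for the 30 tested genes, grouped by function, without the replicate block (circles) and with it (squares, filled where the adjusted p was under 0.05). The 9 tested arrest genes lie to the right of 0 without exception, while Trp53, Bbc3, Triap1, Fdxr and Xpc lie to the left.

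Among the regulators, Ccng1, which encodes cyclin G1, a p53 target that acts with a phosphatase on Mdm2, rose in HPC, while Trp53 mRNA itself was not called in edgeR with or without the block. Trp53 (chr11:69580359-69591873) was at 125, 134 and 118 CPM in HPC libraries 1, 2 and 3, against 181, 173 and 127 CPM in LPC. The highest HPC library exceeded the lowest LPC library, so the groups overlapped, although HPC was the lower one at each of the 3 replicate numbers. Mean levels were 125 ± 8.02 CPM for HPC libraries and 160 ± 28.9 CPM for LPC libraries (SD, n = 3 each), a log2 fold change of -0.36 (SE 0.15, edgeR adjusted p = 0.51, and 0.15 with the block). The annotation also holds a pseudogene named for Trp53 and one for Mdm4, with which reads could be shared. Sesn2, Bax, Fas and Rrm2b overlap another annotated gene on their own strand, and Mdm4, Gadd45a, Plk3, Apaf1, Ei24, Ddb2, Polk and Rrm2b one on the other strand, so their counts are uncertain to that extent.

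Ccng1 (chr11:40748552-40755311) was at 583, 205 and 338 CPM in HPC libraries 1, 2 and 3, against 132, 92.0 and 148 CPM in LPC. All HPC libraries lay above all LPC libraries, with HPC replicate 1 far above the other two. The log2 fold change was 1.60 (SE 0.35, edgeR adjusted p = 0.20), and with the block 1.50 (SE 0.19, 2.83-fold, edgeR adjusted p = 0.015). Over all 16 alternatives its adjusted p in edgeR, DESeq2 and limma-voom ran from 4.1e-36 to 0.75. The lowest came from the blocked edgeR fit without the libraries numbered 1, which leaves 1 residual degree of freedom. That fit also gave the lowest adjusted p of each other member with such a range below. Without HPC replicate 1 the log2 fold change was 1.14.

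Mdm2 (chr10:117688875-117710758) was at 164, 100.2 and 93.5 CPM in HPC, against 89.7, 72.9 and 74.4 CPM in LPC. These groups did not overlap, with the lowest HPC library close to the highest LPC library. Its log2 fold change of 0.59 (SE 0.22) had an edgeR adjusted p of 0.46 without the block and 0.064 with it. Trp53inp1, whose product enhances p53 activity, was at 368, 67.7 and 129 CPM in HPC and 58.7, 50.7 and 98.4 CPM in LPC. Its groups overlapped, and its log2 fold change of 1.44 (SE 0.56, edgeR adjusted p = 0.49) was 0.51 without HPC replicate 1. The log2 fold changes of Mdm4 and of Ppm1d, a phosphatase that switches p53 signalling off, were 0.42 and 0.18 (edgeR adjusted p = 0.54 and 0.76).

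The arrest genes had the highest median log2 fold change of the 4 classes, 0.89. It was positive in all 9 tested members, compared with 48.2% of all genes. In 6 of them every HPC library lay above every LPC library, compared with 7.16% of all genes. Cdkn1a, Zmat3 and Phlda3 rose in HPC in the blocked fit. Gdf15, a secreted stress cytokine, was not tested, with 7, 3 and 6 counts in HPC and 2, 8 and 3 counts in LPC.

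Cdkn1a (chr17:29090976-29100727) encodes p21, the inhibitor of cyclin-dependent kinases through which p53 halts the cell cycle. It was at 586, 184 and 332 CPM in HPC libraries 1, 2 and 3, against 121, 104 and 161 CPM in LPC. The groups did not overlap, and HPC replicate 1 was again highest, with HPC replicate 2 only a little above LPC replicate 3. The log2 fold change was 1.51 (SE 0.38, edgeR adjusted p = 0.24), and with the block 1.37 (SE 0.25, 2.59-fold, edgeR adjusted p = 0.042, with 3.8e-23 to 0.87 over the alternatives). Without HPC replicate 1 the log2 fold change was 1.01.

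Phlda3, a p53 target that restrains the kinase Akt, was at 191, 96.7 and 164 CPM in HPC, against 58.7, 60.7 and 80.4 CPM in LPC. The groups did not overlap, and HPC replicates 1 and 3 stood well apart from all LPC libraries. It was 2.19-fold higher in HPC in the blocked fit (log2 1.13, SE 0.18, edgeR adjusted p = 0.028, with 1.6e-17 to 0.75 over the alternatives, and 0.18 without the block). Zmat3, an RNA-binding protein induced by p53, was at 335, 151 and 217 CPM in HPC, against 141, 100.4 and 137 CPM in LPC. Its groups did not overlap, with HPC replicate 2 just above LPC replicate 1. It was 1.78-fold higher in the blocked fit (log2 0.83, SE 0.14, edgeR adjusted p = 0.030, with 1.2e-10 to 1.00 over the alternatives, and 0.34 without the block).

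Btg2, an antiproliferative gene, was at 17.2, 4.46 and 6.10 CPM in HPC and 3.51, 2.80 and 2.54 CPM in LPC. All HPC libraries lay above all LPC libraries, with HPC replicate 1 far above the rest. Its log2 fold change was 1.65 (SE 0.50), and 0.84 without HPC replicate 1. Its adjusted p was 0.33 in edgeR, 0.058 in edgeR with the block and 0.032 in DESeq2. Plk2, a polo-like kinase, was at 28.2, 13.9 and 16.7 CPM in HPC and 6.48, 7.40 and 11.2 CPM in LPC. Its groups did not overlap, and its log2 fold change of 1.23 (SE 0.31) had an adjusted p of 0.25 in edgeR, 0.075 in edgeR with the block and 0.0097 in DESeq2. Of the other arrest genes, Plk3 and Sesn2 had log2 fold changes of 0.42 and 0.35, and Sesn1 and Gadd45a of 0.11 and 0.09.

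**Figure D2:**
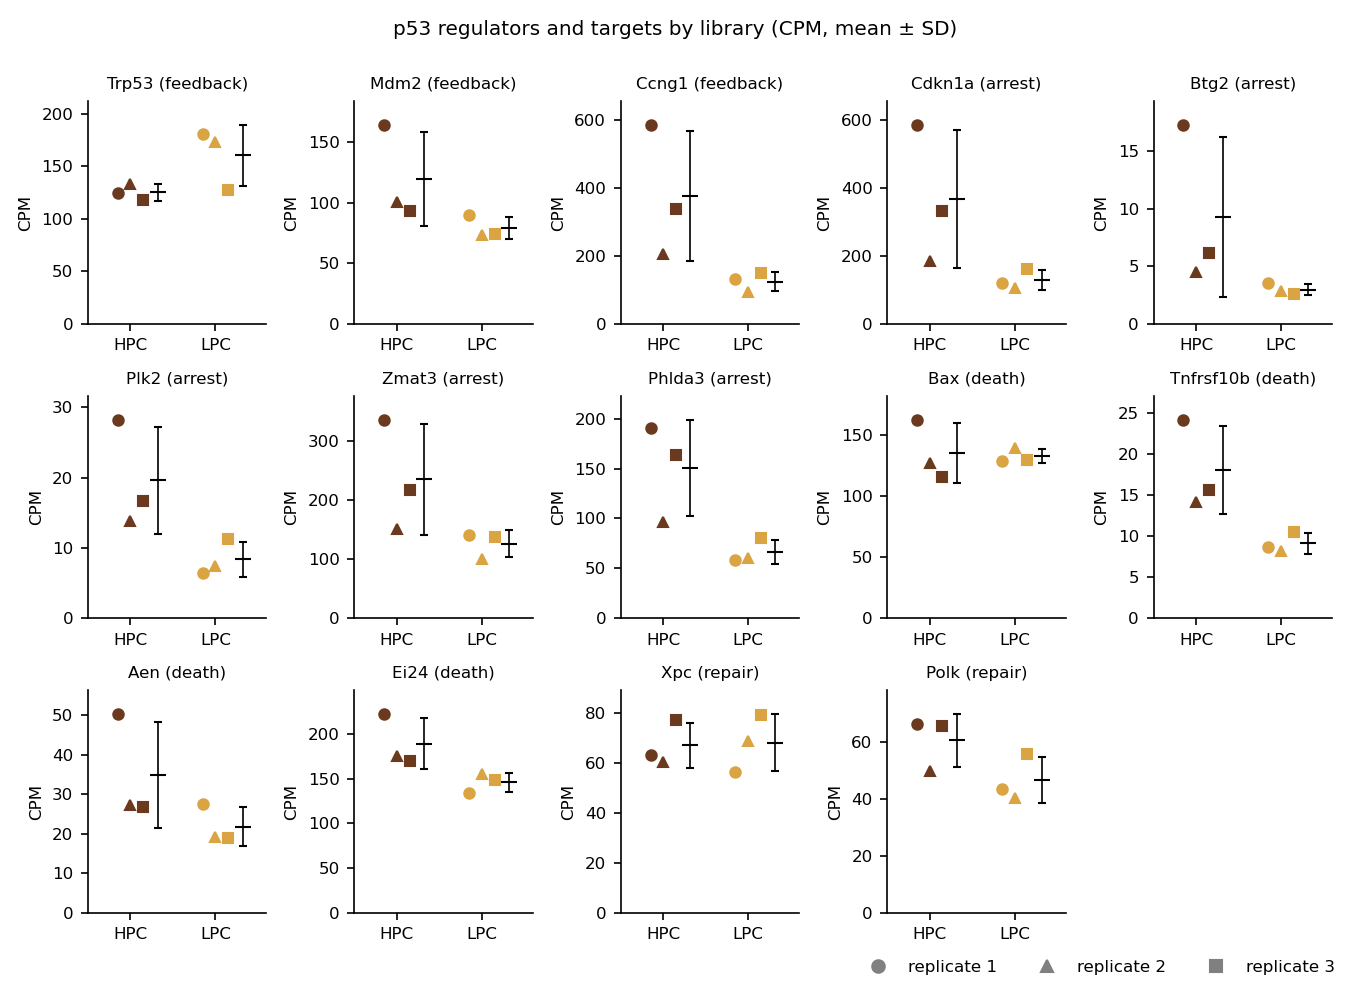
CPM of 14 members in each library, with HPC left of LPC, replicate numbers as symbols and bars for mean ± SD (n = 3 each). HPC replicate 1 is the highest library for most genes, Ccng1 and Cdkn1a at 583 and 586 CPM among them, whereas Trp53 is highest in LPC replicate 1 at 181 CPM and Bax and Xpc show overlapping groups.

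The death genes ranged widely, with log2 fold changes of -0.20 to 1.82 and a median of 0.24. The log2 fold change was positive in 7 of the 10 tested, compared with 48.2% of all genes. The death receptor gene Tnfrsf10b and the nuclease gene Aen rose in the blocked fit. Tnfrsf10b was at 24.3, 14.3 and 15.7 CPM in HPC, against 8.64, 8.19 and 10.6 CPM in LPC. Its groups did not overlap, and it was 1.93-fold higher in the blocked fit (log2 0.95, SE 0.19, edgeR adjusted p = 0.0495, with 0.00019 to 0.79 over the alternatives, and 0.22 without the block). Aen was at 50.3, 27.3 and 26.8 CPM in HPC, against 27.5, 19.1 and 18.8 CPM in LPC. LPC replicate 1 reached the level of HPC replicates 2 and 3, so the groups overlapped, yet HPC was the higher one at each replicate number. It was 1.56-fold higher in the blocked fit (log2 0.64, SE 0.12, edgeR adjusted p = 0.042, with 0.00032 to 1.00 over the alternatives, and 0.51 without the block).

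Bax, which permeabilises the outer mitochondrial membrane, was at 163, 127 and 116 CPM in HPC, against 129, 139 and 130 CPM in LPC. The LPC libraries lay inside the HPC range, and the log2 fold change was 0.03 (SE 0.14, edgeR adjusted p = 0.98). Bbc3, which encodes the BH3-only protein Puma, had a log2 fold change of -0.20 (SE 0.28, edgeR adjusted p = 0.89), with values of 23.1, 11.5 and 15.5 CPM in HPC and 13.97, 21.3 and 22.0 CPM in LPC. HPC was the higher one at replicate number 1 and the lower one at numbers 2 and 3. Pmaip1, which encodes the related Noxa, had no count in any library, which allows up to 0.135 to 0.168 CPM in HPC and 0.158 to 0.202 CPM in LPC, for counting error only. Apaf1, the scaffold of the apoptosome, had a log2 fold change of 0.11 (edgeR adjusted p = 0.81).

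Ei24, a membrane protein of the endoplasmic reticulum, was at 222, 176 and 170 CPM in HPC, against 134, 155 and 149 CPM in LPC. Its groups did not overlap, and its log2 fold change was 0.38 (SE 0.13, edgeR adjusted p = 0.45, and 0.18 with the block). Eda2r, a receptor of the tumour necrosis factor family, had the largest fold change of the members on few reads, with 61, 29 and 19 counts in HPC and 10, 3 and 12 counts in LPC (log2 1.82, SE 0.67, edgeR adjusted p = 0.47, and log2 1.11 without HPC replicate 1). Perp, a desmosome and apoptosis gene, was also sparse, with 39, 28 and 30 counts in HPC and 11, 15 and 16 counts in LPC (log2 0.93, edgeR adjusted p = 0.49). Triap1 and Fdxr, both mitochondrial, had log2 fold changes of -0.03 each. Fas, another death receptor, had 14, 4 and 1 counts in HPC and 1, 2 and 1 counts in LPC, and the autophagy gene Dram1 had 12, 17 and 9 counts in HPC and 7, 6 and 6 counts in LPC. Neither passed the filter.

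Among the repair genes the median was 0.21 on the log2 scale. All 5 were tested, and 4 had a positive log2 fold change, compared with 48.2% of all genes. None was called in edgeR or DESeq2 with or without the block. Xpc, which recognises damage in nucleotide excision repair, was at 63.4, 60.6 and 77.4 CPM in HPC, against 56.3, 69.0 and 79.3 CPM in LPC. The HPC libraries lay inside the LPC range (log2 -0.02, SE 0.16, edgeR adjusted p = 0.98). Polk, a translesion polymerase, was at 66.1, 49.8 and 65.3 CPM in HPC, against 43.4, 40.4 and 55.8 CPM in LPC. HPC was higher at each replicate number although the groups overlapped (log2 0.38, SE 0.17, edgeR adjusted p = 0.54, and 0.12 with the block). Ercc5, Rrm2b and Ddb2 had log2 fold changes of 0.57, 0.21 and 0.09, and of these Rrm2b had groups without overlap.

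The size of the difference varied between replicate numbers. At number 1, 28 of the 30 tested members were higher in the HPC library than in its LPC partner, with a median log2 difference of 0.66. At number 2 it was 23 members with a median of 0.28, and at number 3 it was 24 with a median of 0.32. Of all genes 50.2%, 48.4% and 48.6% were higher in HPC at the 3 numbers. In 21 members HPC was higher at all 3 numbers, compared with 19.6% of all genes, and Trp53 was the one member lower at all 3, compared with 21.3%. HPC replicate 1 was the highest of the 6 libraries in 20 of the 30 members, compared with 14% of all genes, and the difference was largest at number 1 in 20 members, compared with 42.4% of all genes. That library also had the largest share of mitochondrial counts, 3.21%, where the others had 2.07% to 2.56%, and the highest sum of immune markers, 15.9 CPM. The part of these in the result was not tested. Without HPC replicate 1 the median log2 fold change of the members was 0.30, 26 of 30 were positive, and 8 had an unadjusted p under 0.05 in edgeR, where 7.49% of all genes did. With all libraries it was 15 members, where 9.37% of all genes did. Among the HPC libraries the highest level of Tyr, 994 CPM, was in replicate 3, and its lowest LPC level was in replicate 2.

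**Figure D3:**
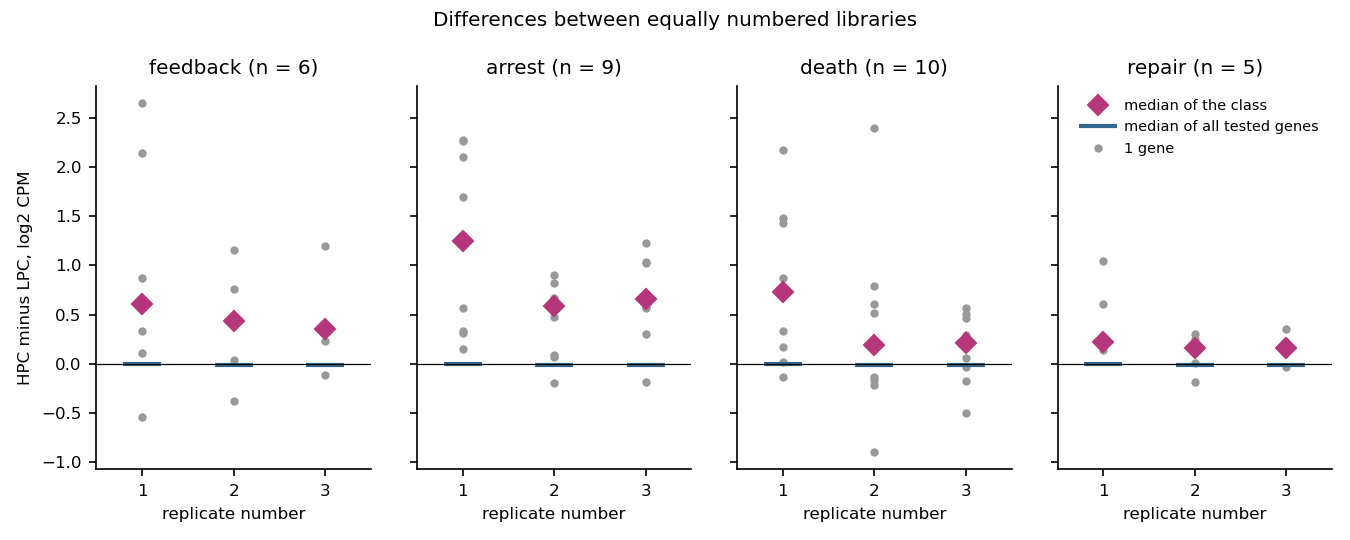
Differences in log2 CPM between HPC and LPC libraries of the same replicate number for the 30 tested members (grey points), by function, with the median of each class (diamonds) and of all tested genes (bars). The medians of the arrest class are 1.25, 0.59 and 0.66 at numbers 1, 2 and 3, and those of the repair class are 0.23, 0.17 and 0.16.

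Genes around the p53 pathway were read from further lists, also chosen with earlier results of these data known. Of 18 upstream genes, such as the damage kinases Atm, Atr, Chek1 and Chek2, 15 were tested and none was called in edgeR with or without the block, and none in DESeq2 or limma-voom. At an unadjusted p of 0.05 edgeR gave 1 higher and 0 lower without the block (5.06% and 4.31% of all genes) and 1 of each with it (10.1% and 8.66%). Their median log2 fold change was 0.05. Cdkn2a, whose Arf product inhibits Mdm2, had no count in any of the 6 libraries. Of 44 further p53 targets, 37 were tested. A positive log2 fold change was found in 28, compared with 48.2% of all genes, and the median was 0.22. The blocked edgeR fit called 6 of them higher in HPC, where 1.43% of all genes were, and 1 lower, where 1.1% were. Without the block edgeR called none, with 9 higher and 1 lower at an unadjusted p of 0.05 (5.06% and 4.31% of all genes), limma-voom called none and DESeq2 called 5 higher (1.02% of all genes).

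Psrc1, a spindle protein gene, was at 178, 129 and 149 CPM in HPC, against 77.7, 74.3 and 70.1 CPM in LPC. These groups lay far apart, and the log2 fold change was 1.04 (SE 0.14, edgeR adjusted p = 0.071, and 0.0087 with the block). Gtse1, which binds p53 and is expressed in the G2 and S phases, was at 142, 102 and 104 CPM in HPC, against 74.1, 58.0 and 42.1 CPM in LPC. In the blocked fit it rose 2.02-fold (edgeR adjusted p = 0.012, and 0.19 without the block). Cyfip2, of the actin-regulating WAVE complex, averaged 224 ± 23.5 CPM over HPC libraries and 125 ± 28.6 CPM over LPC libraries (SD, n = 3 each). Its edgeR adjusted p was 0.013 in the blocked fit and 0.18 in the other. Both genes had groups without overlap. Ephx1, an epoxide hydrolase, averaged 397 ± 88.4 CPM in HPC and 200.4 ± 78.7 CPM in LPC (blocked edgeR adjusted p = 0.029, unblocked 0.30). Slc19a2, a thiamine transporter, and Pidd1, a death domain protein, were 1.84-fold and 1.45-fold higher in the blocked fit (edgeR adjusted p = 0.044 and 0.0495, and 0.30 and 0.55 without the block). The receptor tyrosine kinase gene Epha2 was lower in HPC, with 5, 15 and 8 counts in HPC and 11, 54 and 29 counts in LPC (log2 -1.99, blocked edgeR adjusted p = 0.037, unblocked 0.30). Ephx1, Slc19a2 and Epha2 also had groups without overlap, whereas those of Pidd1 overlapped. Of the 37 tested targets, 10 had every HPC library above every LPC library, compared with 7.16% of all genes. The opposite order was found in 1, compared with 7.18%.

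Mitotic genes that are known to be lowered when p21 is active were read in the same way. Of the 16, all tested, 15 had a positive log2 fold change, compared with 48.2% of all genes, and the median was 0.39. None was called by edgeR with or without the block, with 3 higher at an unadjusted p of 0.05 without it (5.06% of all genes), 11 higher with it (10.1% of all genes) and 0 lower in both. DESeq2 called 0 without the block and 4 higher with it (2.58% of all genes). The mitotic kinase gene Cdk1 was at 188, 231 and 165 CPM in HPC, against 181, 150.5 and 94.9 CPM in LPC, and Top2a at 806, 1171 and 910 CPM in HPC, against 862, 580 and 378 CPM in LPC. Both had overlapping groups, and both are named outside the rule for naming genes, after their values were seen. The median log2 difference of the mitotic list was -0.09 at replicate number 1, where the members had their largest, and 0.60 and 0.84 at numbers 2 and 3.

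Stress genes that respond to handling or to amino acid shortage were read beside the members. Of 12 tested immediate early genes 5 had a positive log2 fold change, compared with 48.2% of all genes, with a median of -0.03. Egr1 was the one called in the blocked fit, where 1.43% of all genes were called higher. It was at 3.82, 6.31 and 4.37 CPM in HPC against 1.08, 0.687 and 1.00 CPM in LPC (log2 2.39, edgeR adjusted p = 0.018, and 0.071 without the block). Of 14 ATF4 targets 5 were positive, compared with 48.2% of all genes, with a median of -0.10. Vldlr was called lower in HPC in the blocked fit, where 1.1% of all genes were (log2 -1.20, edgeR adjusted p = 0.025, and 0.22 without the block). In HPC replicate 1 the median deviation from the mean of the 6 libraries was 0.97 for the arrest genes, 0.16 for the immediate early genes and -0.23 for the ATF4 targets.

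**Figure D4:**
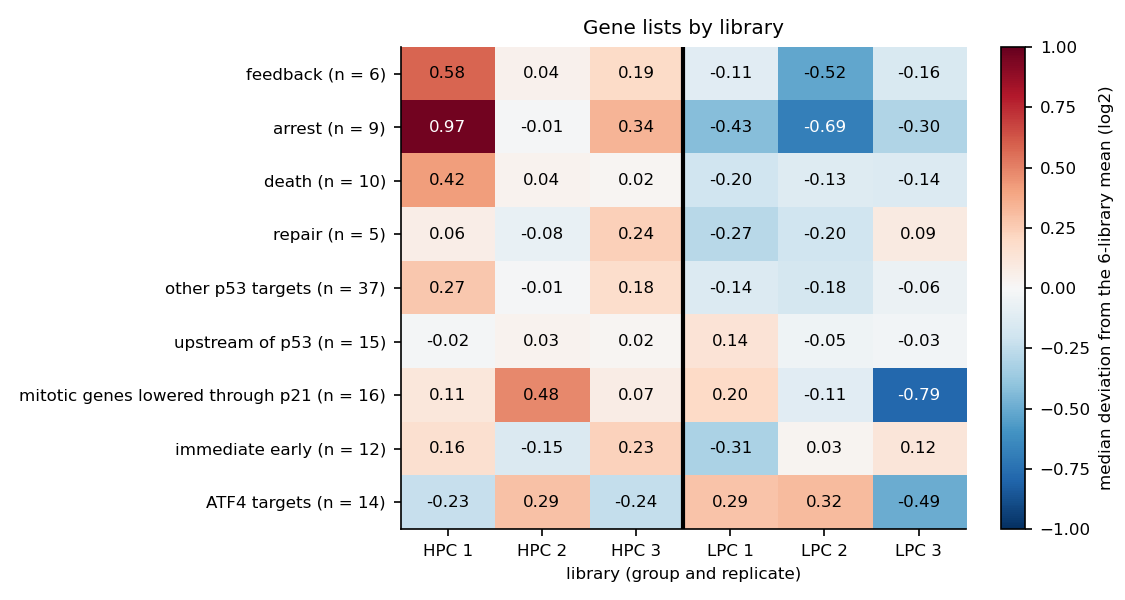
Median deviation of each gene list from its mean over the 6 libraries, in log2 CPM, with HPC libraries left of LPC libraries. The arrest genes are highest in HPC replicate 1 at 0.97 and lowest in LPC replicate 2 at -0.69, whereas the mitotic genes are highest in HPC replicate 2 at 0.48 and lowest in LPC replicate 3 at -0.79.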

How the data were processed

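RNA was measured in 3 HPC and 3 LPC libraries prepared for 3′ end sequencing (Lexogen QuantSeq FWD), per the labels' protocols. The values are the raw gene counts that the authors deposited, in 1 table. Per the submitters' processing notes STAR and the build GRCm38 were used. Not given in the sources used here are the counting program, annotation release, strand setting and any use of molecular identifiers. Reads lie at transcript ends, and reads of overlapping genes may not be told apart. Levels are not compared between genes beyond the marker sums and the choice of members to name.

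From the deposited counts, genes were filtered with filterByExpr (11921 of 22740 kept), scaled with TMM factors and tested with edgeR 4.0.16 in R 4.3.3 (quasi-likelihood F-test, group as the one term, 4 residual degrees of freedom), with Benjamini-Hochberg adjustment over all tested genes and a threshold of 0.05. CPM values use the same factors, and log2 CPM has a prior count of 2. Replicates of a group differed far beyond counting noise. The groups share replicate numbers in the labels, and deviations from the group means correlated across genes at 0.42, 0.35 and 0.65 for numbers 1, 2 and 3, above the minimum of 0.1. The highest correlations with a library of another number were 0.20, 0.20 and -0.05, so unequally numbered libraries could pass that minimum too. Since no label states a shared sort, the pairing rests on the correlations of equal numbers, which are weak evidence with 3 libraries a group. With the block 2 residual degrees of freedom remain. DESeq2 1.42.0 and limma-voom (limma 3.58.1), other scalings, no filter and leaving out libraries were the alternatives. edgeR and DESeq2, each with and without the block, and limma-voom were checked on simulated data drawn without a replicate effect. In these data the share of false calls was above the threshold in edgeR, limma-voom and DESeq2 alike, and highest in DESeq2. How the blocked fits do where replicate numbers share an effect was not tested.

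The members and lists were chosen with earlier results of these data known. Members are given per library if they are Trp53, Cdkn1a or Mdm2, are called in edgeR with or without the block or in DESeq2, or have one of the 2 highest mean CPM values of their class, which names 14. Those means, taken over all libraries of both groups, were used only for that choice. Trp53inp1, Bbc3 and the counts of sparse members fall outside the rule and are given per library after their values were seen, and the other members more briefly. Gene positions are those of GENCODE M21 on GRCm38.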

Additional observations from a re-analysis of the deposited data

How the results depend on the processing

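The 25 positive members of 30 and their median log2 fold change of 0.40 stayed between 23 and 29 and between 0.30 and 0.48 over all alternatives. The number of members called, 0 in edgeR, was 6 with the replicate block, 6 in DESeq2 and 10 in DESeq2 with the block. It was 0 with RLE scaling, library size only, limma-voom, no filter or any 1 library left out, and 18, 0 and 7 with the block and without the libraries numbered 1, 2 and 3, a fit with 1 residual degree of freedom. Over all genes, 5 of 11921 were called in edgeR, 301 with the block, 226 in DESeq2 and 488 in DESeq2 with the block. Without a filter it was 28, with RLE scaling 4, in limma-voom 5, and with 1 library left out 0 to 43. With the block and without numbers 1, 2 and 3 it was 2947 of 12018, 0 of 11927 and 196 of 11929. The cause was not tested. In edgeR the block changed the calls of the 6 members named and of no other member, and in DESeq2 it added calls of Mdm2, Mdm4, Zmat3 and Aen.

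Of 30 members 22 never changed sign. With 1 library left out in turn, log2 fold changes ran from -0.068 to 0.44 for Gadd45a, -0.053 to 0.42 for Sesn1, -0.50 to 0.016 for Bbc3, -0.12 to 0.13 for Bax, -0.15 to 0.057 for Triap1, -0.086 to 0.078 for Fdxr, -0.052 to 0.21 for Ddb2 and -0.14 to 0.098 for Xpc. With the block and without the libraries numbered 1, Sesn1 was at -0.049, Bax at -0.14 and Triap1 at 0.035, and without those numbered 2, Bbc3 was at 0.11, Triap1 at 0.075, Fdxr at 0.043 and Xpc at 0.067. Without HPC replicate 1 the folds of Trp53inp1, Btg2 and Eda2r were lower by 1.90, 1.74 and 1.64 times. Genes under about 100 counts per library, such as Eda2r, Perp and Fas, are limited by depth, and intervals for 0 counts cover counting error only.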
